A study of Drepana arcuata with 6 samples.

Results

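Genes grouped here under digestion and the gut lining were followed through all their assembled isoforms in larvae of the masked birch caterpillar, *Drepana arcuata*. They were the aminopeptidase N-like gene TRINITY_DN20910_c0_g1, the serine protease H51 gene TRINITY_DN19503_c2_g2, the mucin-5AC-like gene TRINITY_DN20861_c0_g1 and the gamma-glutamyltranspeptidase 1-like gene TRINITY_DN15186_c1_g1. They were taken by identifier from the study's list of transcripts that differed between larval stages, and every isoform of each was kept. The set held 4 of the 116079 Trinity genes of the assembly and 39 of its 231348 transcripts. The assembler Trinity groups transcripts that overlap in sequence into 1 gene, and the transcripts of such a gene are referred to as its isoforms. Because the study chose 1 isoform of each gene for its stage difference in these same libraries, the stage difference of the listed isoforms, and of their genes, is not independent evidence.

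RNA of whole larvae was sequenced in 3 libraries of late instars (instars IV and V, pools of 5 larvae) and 3 libraries of early instars (instars I and II, pools of 20 larvae). Early instars of this moth live in groups and late instars live alone, so the comparison of late with early instars covers age, size and social state together, and these cannot be told apart. All larvae were offspring of 1 wild-caught female and fed on leaves of paper birch. The labels call the replicates biological, but the pools share a mother and a rearing, so p-values measure only the spread between such pools.

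Caterpillars digest leaf protein in the midgut, where trypsin-like and chymotrypsin-like serine proteases cut proteins into peptides and membrane-bound aminopeptidases then release single amino acids from the ends of those peptides. The midgut surface is covered by the peritrophic matrix, a sheet of chitin and proteins that includes mucin-like ones. Gamma-glutamyltranspeptidases are cell surface enzymes that take the gamma-glutamyl group off glutathione, an antioxidant and detoxifying peptide. Gamma-glutamyltranspeptidase is thus named for neither digestion nor the gut lining, and the paper counts aminopeptidase N among detoxification-related enzymes. Each of the 4 genes takes its name from the most similar protein found in a different species. Expression in the gut itself was not measured, because whole bodies were sequenced, and gut markers were not checked, since a transcript annotation was not used here. In such bulk RNA, a change in the number of cells of a type and a change in the RNA made per cell cannot be told apart. Sequences were not analysed here, and the isoforms are described by their lengths in bases.

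Levels are given as CPM, the count of fragments assigned to a gene or isoform, scaled to a library total of the same fixed size in every library after TMM normalization, and as TPM, which also divides by transcript length and so allows levels of different genes to be compared. The late libraries summed to between 15109224 and 35571272 counts and the early libraries to between 11177800 and 46307057 counts. A filter of more than 1 CPM in at least 2 libraries left 22132 genes, to which edgeR's quasi-likelihood test was applied. A gene was called when its Benjamini-Hochberg adjusted p was at most 0.001 and its log2 fold change, late over early, was at least 2 in size. The standard error (SE) given with a log2 fold change was worked back from the test. It is the size of the fold change divided by the square root of the test's F statistic. Late replicate 2 stood apart from the other late libraries. Its log2(CPM + 1) values correlated across genes at r = 0.937 with late replicate 1 and 0.955 with late replicate 3, against 0.983 between late replicates 1 and 3 and 0.976 to 0.983 between early libraries.

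The aminopeptidase N-like gene rose about 20.1-fold in late instars and the serine protease H51 gene about 83.9-fold. The mucin-5AC-like gene was 9.41-fold higher and the gamma-glutamyltranspeptidase gene 2.34-fold higher, and neither met both limits of the call. In all 4 genes every late library was above every early library, which was also the case in 20.7% of all tested genes. Of the 4, 2 were called higher in late instars, where 4.87% of all tested genes were. With an adjusted p of 0.05 and no limit on the fold, 4 of 4 were higher, where 14.0% of all tested genes were. The median log2 fold change was 3.78 over the 4 genes and -0.0027 over all tested genes.

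**Figure D1:**
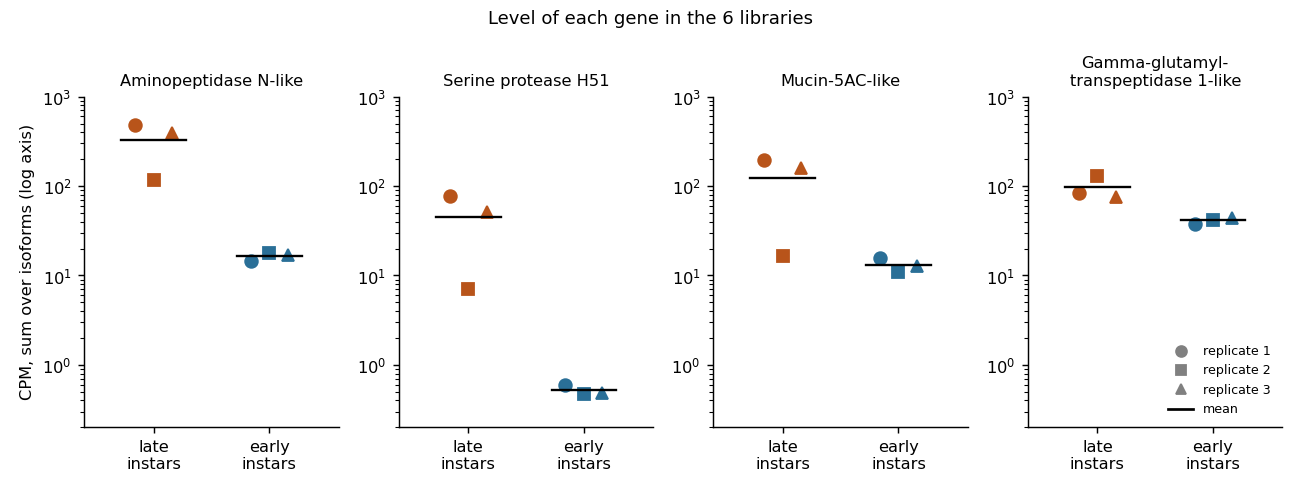
CPM of each gene, summed over its isoforms, in the late (left) and early (right) libraries on a log axis, with 1 point per library, the replicate shown by the symbol and the mean by a line. Late replicate 2 (square) was the lowest late library for the first 3 genes, down to 7.13 CPM for serine protease H51 and 16.4 CPM for the mucin-5AC-like gene, and the highest for gamma-glutamyltranspeptidase at 130.1 CPM.

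Aminopeptidases N are zinc exopeptidases of the brush border that remove amino acids from the N-terminal end of peptides, and in caterpillars they are also known as binding sites of Bacillus thuringiensis toxins. The aminopeptidase N-like gene had 483, 116 and 389 CPM in late replicates 1, 2 and 3, against 14.4, 18.0 and 16.8 CPM in early replicates 1, 2 and 3. The lowest late library was 6.45 times the highest early library. The gene averaged 329 ± 191 CPM in late instars and 16.4 ± 1.81 CPM in early instars (SD, n = 3 each). The log2 fold change was 4.33 ± 0.51 (SE; edgeR quasi-likelihood test, adjusted p = 0.000406). Its lowest late library held 3203 fragments of the gene and its lowest early library 192. The call was lost without late replicate 3 (adjusted p = 0.0013, edgeR quasi-likelihood test) and without early replicate 1, 2 or 3 (adjusted p = 0.00457, 0.00377 and 0.00482), while the log2 fold change stayed between 3.96 and 4.74 with any library left out. It was also lost with the replicate number as a block (4.13, adjusted p = 0.00141 in edgeR's quasi-likelihood test) and by limma on log2(TPM + 0.5) (3.79, adjusted p = 0.00114).

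Serine proteases of the digestive kind cut proteins inside the chain, and the name H51 comes from a protein whose target is not given. The serine protease H51 gene had 77.4, 7.13 and 51.1 CPM in late replicates 1, 2 and 3, against 0.597, 0.468 and 0.490 CPM in early replicates 1, 2 and 3. Its early level rested on 29, 5 and 11 fragments. The gene averaged 45.2 ± 35.5 CPM in late instars and 0.518 ± 0.0689 CPM in early instars (SD, n = 3 each). The late libraries spread widely, from 7.13 to 77.4 CPM, yet the lowest was 11.9 times the highest early library. The log2 fold change of 6.39 ± 0.89 (SE; edgeR quasi-likelihood test, adjusted p = 0.000989) was the largest of the 4 genes. No early library reached 1 CPM, so the gene passed the filter on low values only through its late libraries and had to differ. The call was lost without late replicate 1 (log2 fold change 5.76; edgeR quasi-likelihood test, adjusted p = 0.00154), late replicate 3 (adjusted p = 0.00256) and early replicate 1, 2 or 3 (adjusted p = 0.00941, 0.00795 and 0.0101), with log2 fold changes of 6.31 without late replicate 3 and 6.56, 6.34 and 6.34 without early replicates 1, 2 and 3. By limma on log2(TPM + 0.5), a scale that shrinks the fold of a gene with so low an early level, the log2 fold change was 3.04 and the call was lost (adjusted p = 0.00569).

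Mucin-5AC is a secreted gel-forming mucin of the stomach and airways in mammals, and its name is often given to other long, repetitive, heavily glycosylated proteins. The mucin-5AC-like gene had 196 CPM in late replicate 1, 16.4 CPM in late replicate 2 and 159 CPM in late replicate 3, against 15.6, 11.0 and 12.7 CPM in early replicates 1, 2 and 3. Late replicate 2 lay only 1.05 times above the highest early library, whereas late replicates 1 and 3 were far above every early library. The gene averaged 124 ± 94.95 CPM in late instars and 13.1 ± 2.32 CPM in early instars (SD, n = 3 each). The log2 fold change was 3.23 (standard error 0.76), which missed the call (adjusted p = 0.0141 in the quasi-likelihood test of edgeR). Leaving out late replicate 2 gave a log2 fold change of 3.75 and a call (adjusted p = 4.95e-06 in the quasi-likelihood test of edgeR). Without early replicate 1, 2 or 3 the adjusted p of the same test was 0.0540, 0.0653 and 0.0596, and edgeR's exact test, which called 7.67% of all tested genes higher in late instars, called this gene with all libraries (adjusted p = 3.47e-06).

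The gamma-glutamyltranspeptidase gene had 83.5, 130.1 and 75.8 CPM in late replicates 1, 2 and 3, against 37.9, 42.2 and 43.5 CPM in early replicates 1, 2 and 3. Here late replicate 2 was the highest late library, and the lowest late library was 1.74 times the highest early one. The gene averaged 96.5 ± 29.4 CPM in late instars and 41.2 ± 2.90 CPM in early instars (SD, n = 3 each). The log2 fold change was 1.23 ± 0.23 (SE; edgeR quasi-likelihood test, adjusted p = 0.00511), under the limit of 2 on the fold. It lay between 0.95 and 1.38 with any library left out. In TPM the gene stood at 13.7, 18.8 and 11.6 in late replicates 1, 2 and 3, against 5.24, 5.32 and 5.35 in early replicates 1, 2 and 3, and the early libraries were close together on both scales.

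On the TPM scale, which takes length into account, the order of the mean levels in late instars was the aminopeptidase N-like gene with 27.3 ± 18.0 TPM, gamma-glutamyltranspeptidase with 14.7 ± 3.72 TPM, the mucin-5AC-like gene with 11.0 ± 7.97 TPM and serine protease H51 with 5.55 ± 3.96 TPM (SD, n = 3 each). The ranges of neighbours in this order overlapped. In late replicate 2 alone, gamma-glutamyltranspeptidase led with 18.8 TPM, and the aminopeptidase N-like gene followed with 8.59 TPM. The mucin-5AC-like gene and serine protease H51 were at 1.90 and 1.17 TPM in that library. In early instars gamma-glutamyltranspeptidase led with 5.30 ± 0.0569 TPM, above every early value of the other 3 genes. The aminopeptidase N-like gene (1.17 ± 0.27 TPM) and the mucin-5AC-like gene (0.913 ± 0.236 TPM) overlapped in range, and serine protease H51 was lowest at 0.0867 ± 0.0416 TPM. By percentile of mean TPM among the tested genes, the aminopeptidase N-like gene stood at 88.9 in late instars and 29.0 in early instars, and serine protease H51 at 64.9 in late instars and 4.14 in early instars. The mucin-5AC-like gene stood at 78.7 in late and 23.5 in early instars, and gamma-glutamyltranspeptidase at 82.7 in late and 69.5 in early instars.

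The 4 genes did not share the spread among late libraries. The coefficient of variation of the CPM in late instars was 57.9% for the aminopeptidase N-like gene, 78.5% for serine protease H51 and 76.7% for the mucin-5AC-like gene, where the median tested gene had 20.4%. It was 30.5% for gamma-glutamyltranspeptidase. In early instars the same genes had coefficients of 11.0%, 13.3%, 17.7% and 7.05% in that order, all below the 19.2% of the median tested gene. In the first 3 genes, late replicate 2 was the library far below the others. Its CPM was 26.6% of the mean of late replicates 1 and 3 for the aminopeptidase N-like gene, 11.1% for serine protease H51 and 9.25% for the mucin-5AC-like gene, which put them at percentiles 2.05, 1.03 and 0.940 of all tested genes. For gamma-glutamyltranspeptidase it was 163.3%, at percentile 88.4, and the median tested gene stood at 100.2%. These percentiles describe 1 library and carry no test. Late replicate 2 was the lowest of the late libraries in 38.6% of all tested genes, late replicate 1 in 32.0% and late replicate 3 in 29.2%. The labels do not say in what the larvae of late replicate 2 differed, and the part of that library in the stage differences of the 3 genes, beyond the values without it given above, was not tested. Without it, the called fold changes of the aminopeptidase N-like gene (log2 fold change 4.74) and of serine protease H51 (6.89) were larger, and that of gamma-glutamyltranspeptidase was 0.95.

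**Figure D2:**
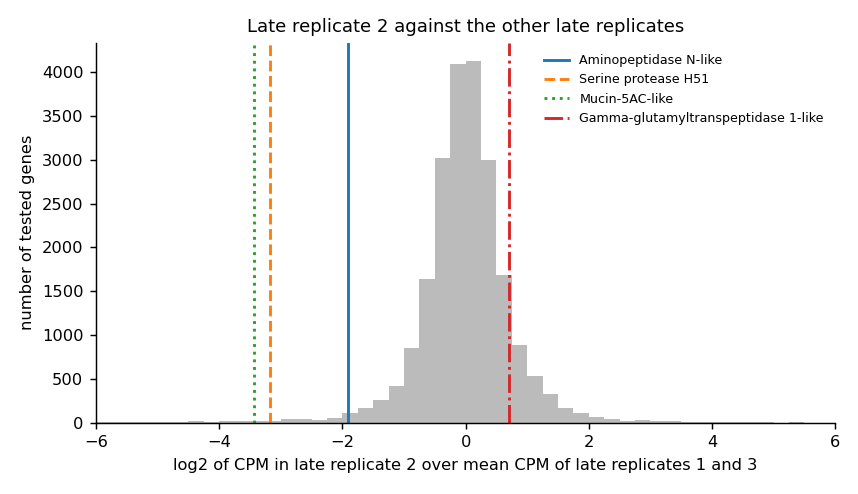
Number of tested genes (bars, steps of 0.25) by the log2 ratio of CPM in late replicate 2 over the mean CPM of late replicates 1 and 3, with a line for each of the 4 genes. The aminopeptidase N-like gene, serine protease H51 and the mucin-5AC-like gene lay at -1.91, -3.17 and -3.43, and gamma-glutamyltranspeptidase at 0.71.

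The genes whose pattern over the 6 libraries was most like each member were ranked by the root mean square difference of log2(CPM + 1), centred on its mean, among the 22131 other tested genes. The 1 added before the log exceeds every early CPM of serine protease H51 (0.468 to 0.597), which shrinks its fold on this scale. Among the 26 other tested genes of the study's named lists, serine protease H51 was nearest to the aminopeptidase N-like gene (difference 0.436, rank 18). In turn, the aminopeptidase N-like gene was nearest to serine protease H51 (rank 8). One gene without a name in those lists, TRINITY_DN16646_c1_g2, was the nearest of all to both, at 0.199 and 0.265. It had 122, 20.8 and 86.1 CPM in late replicates 1, 2 and 3, against 2.35, 2.43 and 2.05 CPM in early replicates 1, 2 and 3. The mucin-5AC-like gene was nearest among named genes to the aminopeptidase N-like gene, but only at rank 293 (difference 0.907). The nearest named gene to gamma-glutamyltranspeptidase was the cytosolic carboxypeptidase 4-like gene (difference 0.298, rank 407). Within a difference of 0.5 lay 28 genes for the aminopeptidase N-like gene, 12 for serine protease H51, 76 for the mucin-5AC-like gene and 3069 for gamma-glutamyltranspeptidase.

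The assembly gave the aminopeptidase N-like gene 7 isoforms of 210 to 4946 bases, serine protease H51 6 isoforms of 274 to 4041 bases, the mucin-5AC-like gene 13 isoforms of 1299 to 6974 bases and gamma-glutamyltranspeptidase 13 isoforms of 288 to 2996 bases. The count of an isoform is an estimate, since the abundance estimator RSEM divides fragments that map to several isoforms between them, whereas the sum over a gene does not depend on that division. Of the 39 isoforms, 33 had a higher mean CPM in late instars, 4 had a lower one, and 2 isoforms of gamma-glutamyltranspeptidase had no count in any library. There were 11 isoforms whose rounded counts were above 0 in late instars and 0 in every early library. Some of them rested on few late counts, such as 1 for gamma-glutamyltranspeptidase i5 and 7 for serine protease H51 i6. The shares of such isoforms, and of higher and lower ones, among all transcripts were not computed. These numbers are therefore not shown to be a trait of the member genes. The filter left 23 isoforms to test, and the other 16 held 429 late and 237 early counts in all.

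Of the 23 tested isoforms, 22 had a positive log2 fold change and 1 a negative one, and the median was 3.33, against -0.0060 over all 52912 tested isoforms. However, 9 of the 23 had no early library above 1 CPM and so passed the filter only through late libraries, which fixed their direction. The quasi-likelihood test called 0 of the 23 at an adjusted p of 0.001, as it called 0 of all 52912, where 12 of the 23 had an unadjusted p under 0.05 and 24.3% of all tested isoforms did. With an adjusted p of at most 0.05 and the same limit on the fold, 7 of the 23 were higher in late instars, where 4.20% of all tested isoforms were. Among these 7, gamma-glutamyltranspeptidase i2, serine protease H51 i2 and i3 and aminopeptidase N-like i2 had no early library above 1 CPM. Their direction was thus fixed by the filter. With the replicate number as a block, 0 of these 7 remained (adjusted p between 0.0718 and 0.274, edgeR quasi-likelihood test), where 0.427% of all tested isoforms were called higher. Without late replicate 1, 2 of the 6 still tested remained, where 2.65% of all tested isoforms were called higher. Without late replicate 2, all 6 still tested remained, where 4.62% of all were called. Without late replicate 3, 3 of the 7 remained, where 3.14% of all were called. Without early replicate 1, 2 or 3, 2 of the 7 remained in each case, where 3.08%, 3.22% and 3.32% of all were called. At the adjusted p of 0.001, edgeR's exact test called 7 of the 23 higher, where it called 4.08% of all, and DESeq2 called 8, where it called 4.86% of all. The calls of both tools also included isoforms that passed the filter only through late libraries.

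**Figure D3:**
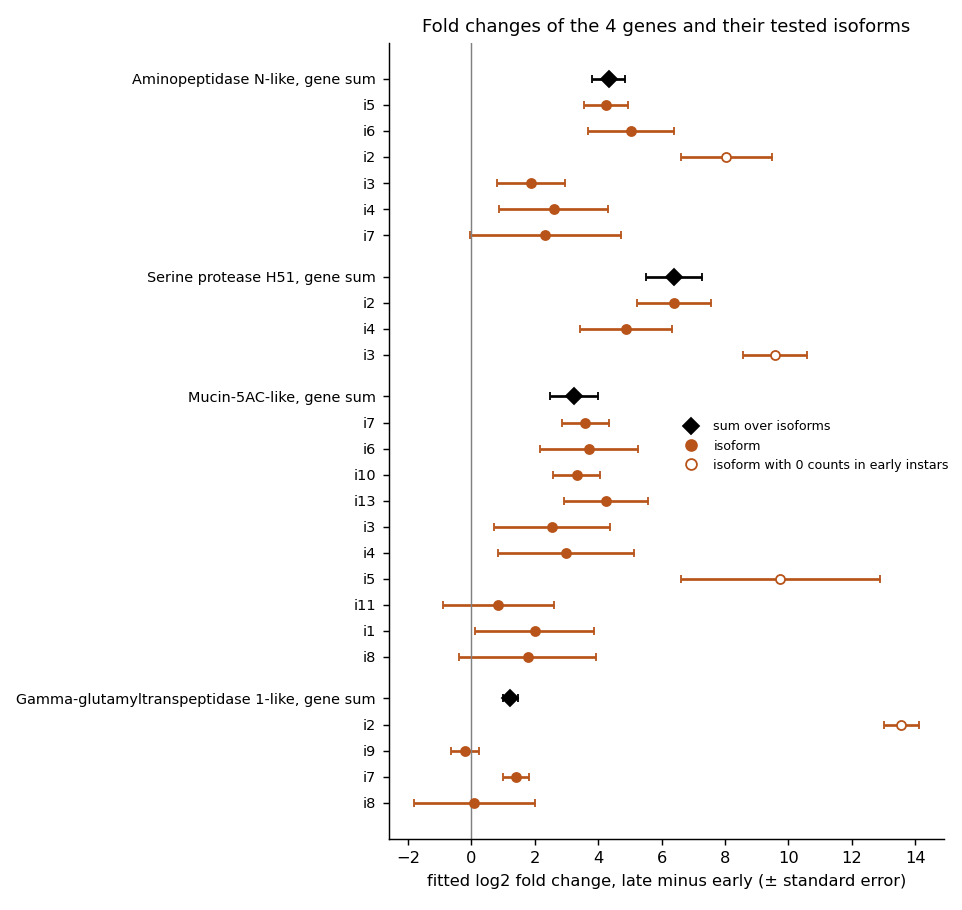
Fitted log2 fold change, late minus early, with its standard error, for each gene sum (black diamonds) and each of the 23 tested isoforms (circles), ordered within a gene by share in late instars. Open circles mark the 4 isoforms with no early counts, whose fitted values and standard errors depend on the prior count of the fit. Gamma-glutamyltranspeptidase i9 at -0.20 is the only isoform below 0.

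In the aminopeptidase N-like gene, a pair of long isoforms that differ by 15 bases in length, i5 (4946 bases) and i6 (4931 bases), held between 96.5% and 98.1% of the counts of the gene in late libraries and between 88.4% and 94.1% in early libraries. Isoform i5, the one the study listed, had 345, 60.9 and 303 CPM in late replicates 1, 2 and 3, against 9.56, 12.1 and 15.4 CPM in early replicates 1, 2 and 3. Its log2 fold change was 4.26 ± 0.70 (SE; edgeR quasi-likelihood test, adjusted p = 0.0174). Isoform i6 had 134, 53.4 and 87.9 CPM in late replicates 1, 2 and 3, against 4.68, 3.62 and 0 CPM in early replicates 1, 2 and 3 (log2 fold change 5.05 ± 1.36 (SE); edgeR quasi-likelihood test, adjusted p = 0.0772). Both members of the pair were higher in every late library than in any early one. Within the pair, i5 took 72.1%, 53.3% and 77.5% of the counts in late replicates 1, 2 and 3, against 67.1%, 76.9% and 100% in early replicates 1, 2 and 3, so the shares of the 2 stages overlapped. The third isoform with at least 10% of the gene's TPM in a stage was i1, a fragment of 210 bases that held 14.5% of the TPM in late and 12.4% in early instars and did not pass the filter on counts.

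Serine protease H51 was likewise dominated, by counts, by isoforms of nearly equal length, i2 (4030 bases) and i3 (4041 bases). The listed isoform i2 had 71.3, 3.73 and 47.8 CPM in late replicates 1, 2 and 3, against 0.626, 0.371 and 0.394 CPM in early replicates 1, 2 and 3 (log2 fold change 6.40 ± 1.17 (SE); edgeR quasi-likelihood test, adjusted p = 0.0249). Isoform i3 had 5.64, 2.88 and 2.25 CPM in late replicates 1, 2 and 3 and no count in any early library. Against a floor of 3 counts over the 3 early libraries, which covers counting error only, i3 was at least 95.7-fold higher in late instars (adjusted p = 0.0144, edgeR quasi-likelihood test). In late replicate 2, i2 took 56.2% of the pair, against 92.7% and 95.4% in late replicates 1 and 3. In early instars all of the pair went to i2, on 29, 4 and 9 counts, which leaves a share of up to 7.14% for i3. The short isoform i4 (462 bases) held 29.5% of the gene's TPM in late and 38.8% in early instars, the early share resting on 1 count each in early replicates 2 and 3 (log2 fold change 4.88; edgeR quasi-likelihood test, adjusted p = 0.100). Isoform i1 (533 bases) reached 10.7% of the TPM in early instars on a single count in early replicate 3 and was not tested.

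The mucin-5AC-like gene was spread over many isoforms, and 10 of its 13 were tested. Its most abundant isoform by CPM, i6 (6477 bases), had 94.3, 4.66 and 64.3 CPM in late replicates 1, 2 and 3, against 7.83, 0 and 4.42 CPM in early replicates 1, 2 and 3 (log2 fold change 3.70 ± 1.54 (SE); edgeR quasi-likelihood test, adjusted p = 0.212). Late replicate 2 thus fell inside the early range for i6. Isoform i13 (4193 bases) had 32.0, 4.29 and 43.5 CPM in late replicates 1, 2 and 3, against 2.14, 0 and 1.84 CPM in early replicates 1, 2 and 3, with no overlap (log2 fold change 4.25; edgeR quasi-likelihood test, adjusted p = 0.114). The short isoforms i7 (1469 bases) and i10 (1447 bases) had lower mean CPM than i6 and i13 in both stages. Their fold changes had smaller standard errors (0.73 and 0.74). By TPM, which takes length into account, i7 instead held the largest mean share of the gene in both stages. That share was 27.3% in late and 19.6% in early instars, against 20.9% and 16.6% for i6. Isoform i7 had 11.6, 3.14 and 16.4 CPM in late replicates 1, 2 and 3, against 0.669, 0.556 and 1.31 CPM in early replicates 1, 2 and 3 (log2 fold change 3.60; edgeR quasi-likelihood test, adjusted p = 0.0345). Isoform i10 averaged 7.69 ± 4.92 CPM in late instars and 0.749 ± 0.287 CPM in early instars (SD, n = 3 each; log2 fold change 3.33; edgeR quasi-likelihood test, adjusted p = 0.0438).

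The isoform of this gene that the study listed, i5 (6645 bases), was a small part of it. It held 3.17%, 4.04% and 0% of the gene's TPM in late replicates 1, 2 and 3 and none in early instars. The fitted log2 fold change of i5 was 9.75 ± 3.13 (SE; edgeR quasi-likelihood test, adjusted p = 0.165). Late replicate 3 had no count of i5, as no early library did. The exact test of edgeR called i5 (adjusted p = 0.000827), and DESeq2 did not (adjusted p = 0.0123). Isoform i11 (6633 bases) was prominent in 1 early library. It held 1.89%, 0% and 3.36% of the gene's TPM in late replicates 1, 2 and 3, against 2.42%, 47.2% and 3.76% in early replicates 1, 2 and 3, and early replicate 2 had no count of i6 or i13 (log2 fold change 0.84; edgeR quasi-likelihood test, adjusted p = 0.851). The log2 fold change of i11 was 2.82 without early replicate 2 and 0.09 without late replicate 3. The 4 isoforms under 2000 bases, a limit chosen after the values were seen, held 36.3%, 66.3% and 44.6% of the gene's TPM in late replicates 1, 2 and 3, against 37.9%, 34.8% and 47.2% in early replicates 1, 2 and 3. Late replicate 2, with the lowest late level of the gene, thus had the largest share of short isoforms.

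**Figure D4:**
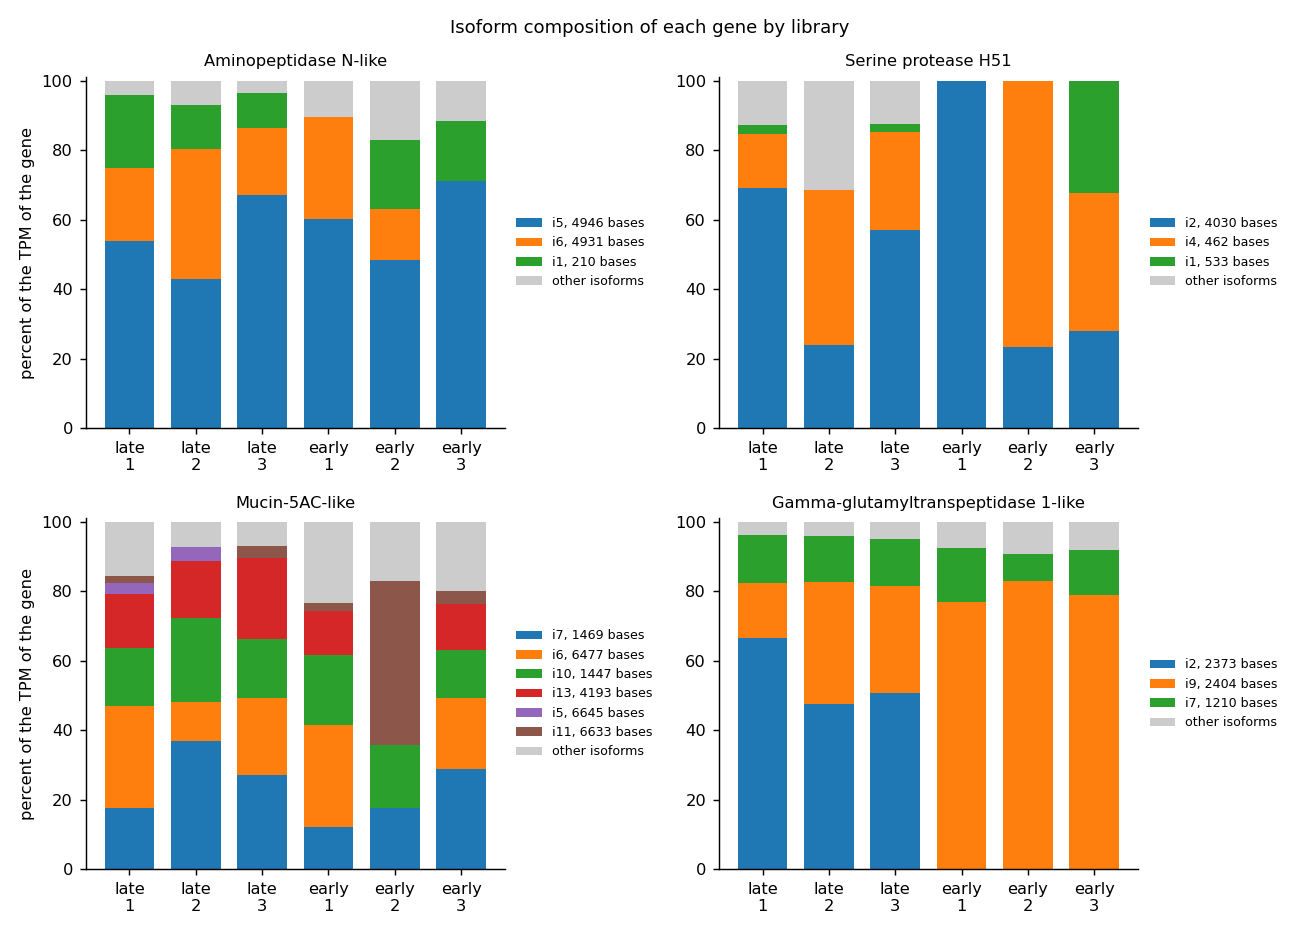
Percent of the TPM of each gene held by its isoforms in each library, late libraries on the left and early libraries on the right, for the isoforms that held at least 10% in a stage or were listed by the study (colours, with length in bases) and the rest together (grey). Gamma-glutamyltranspeptidase i2 held 66.6%, 47.5% and 50.8% in late replicates 1, 2 and 3 and 0 in each early library, while the main isoforms of the aminopeptidase N-like gene were the same in both stages.

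Gamma-glutamyltranspeptidase stood apart from the other 3 genes in its isoforms. The listed isoform i2 (2373 bases) had 60.7, 68.2 and 42.7 CPM in late replicates 1, 2 and 3, from 2216, 1843 and 626 counts, and no count in any early library. Against the floor of 3 counts over the early libraries this is at least 1524-fold higher in late instars. Isoform i2 was, of the main isoforms, the one with the least relative spread in late instars, at 57.2 ± 13.1 CPM (SD, n = 3), and its adjusted p of 0.00313 in edgeR's quasi-likelihood test was the lowest of the 23. With the block on replicate number that p was 0.0718. The exact test of edgeR and DESeq2 called it, with adjusted p of 3.07e-36 and 2.37e-23.

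Isoform i9 (2404 bases), which is 31 bases longer than i2, was the main isoform of early instars. It had 14.7, 51.4 and 26.1 CPM in late replicates 1, 2 and 3, against 33.2, 36.0 and 36.7 CPM in early replicates 1, 2 and 3. Late replicates 1 and 3 lay below every early library and late replicate 2 lay above, so the stages overlapped. Its log2 fold change was -0.20 ± 0.44 (SE; edgeR quasi-likelihood test, adjusted p = 0.864), and without late replicate 1 it was 0.15. The short isoform i7 (1210 bases) averaged 6.71 ± 1.89 CPM in late instars and 2.51 ± 0.819 CPM in early instars (SD, n = 3 each; log2 fold change 1.41; edgeR quasi-likelihood test, adjusted p = 0.0912). The mean of the gene was 55.2 CPM higher in late instars, that of i2 was 57.2 CPM higher and that of i7 4.21 CPM higher, while that of i9 differed by -4.57 CPM. The higher level of the gene in late instars was thus close to the level of i2 alone.

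**Figure D5:**
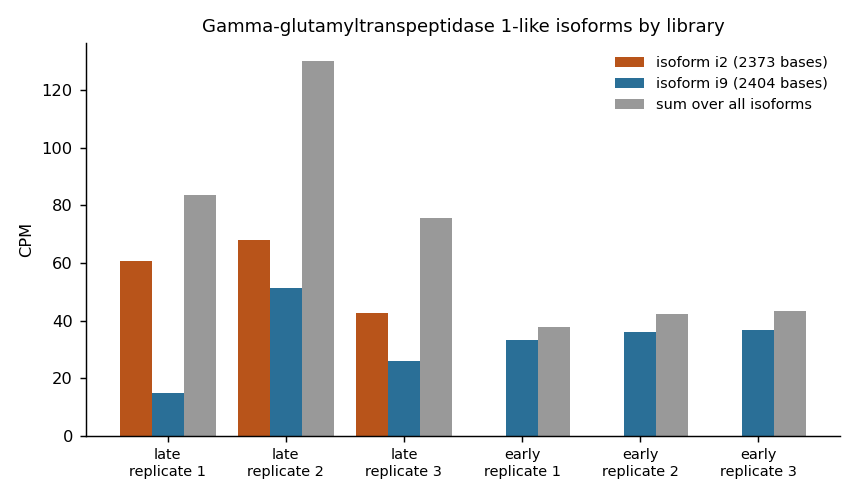
CPM of gamma-glutamyltranspeptidase isoforms i2 and i9 and of the sum over all isoforms in each library, late libraries on the left and early libraries on the right. Isoform i2 was at 42.7 to 68.2 CPM in late libraries and at 0 in early ones, while i9 was at 14.7 to 51.4 CPM in late and 33.2 to 36.7 CPM in early libraries.

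Isoforms i2 and i9 together held between 88.5% and 89.9% of the counts of the gene in late libraries and between 83.5% and 86.1% in early libraries. Within this pair, i2 took 80.5% of the counts in late replicate 1 (95% Wilson interval 78.9% to 81.9%), 57.0% in late replicate 2 (55.3% to 58.7%) and 62.1% in late replicate 3 (59.0% to 65.0%). In early instars it took 0 of 1539, 388 and 839 counts in early replicates 1, 2 and 3, which allows shares of up to 0.195%, 0.773% and 0.358%, or 0.108% of the 2766 counts together. These intervals and limits cover counting error only, not the error in dividing fragments between isoforms of 1 gene. The late libraries differed among themselves by more than these intervals, yet all were far above the early limits. The pairs set side by side here and in the other genes were chosen after their values were seen.

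Whether an isoform moved differently from its gene was tested with edgeR's diffSpliceDGE on the 43775 isoforms of genes with at least 2 tested isoforms. The log2 difference it gives is from the whole gene, the isoform itself included. Of the 23 member isoforms, 1 was called at an adjusted p of 0.05, where 1.56% of all isoforms tested were. It was gamma-glutamyltranspeptidase i2 (adjusted p = 5.56e-06, edgeR diffSpliceDGE). The lowest adjusted p of the others was 0.346 by the same edgeR test, that of i9, with a log2 difference from its gene of -1.51. The study had listed i2 for its difference, so its own value is a description. On simulated counts this test called more unchanged isoforms than its threshold allows and missed most changed ones, and the diffSplice test of limma put i2 at an adjusted p of 0.05002, just past the threshold. The listed isoforms i5 of the aminopeptidase N-like gene and i2 of serine protease H51 differed from their whole genes by -0.09 and -0.01 (log2) in diffSpliceDGE. They held on average 65.9% and 77.6% of their gene's counts in late libraries, which keeps these values small by construction. In limma's diffSplice, which sets an isoform against the other isoforms of its gene, they differed by -0.72 and -0.51. The listed isoform i5 of the mucin-5AC-like gene, with no early count, differed by a fitted 6.49 in diffSpliceDGE and 4.70 in diffSplice, and none of the 3 was called by either test.

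Trinity genes that carry the DN number of a member come from related reads and could be split-off pieces or close copies. There were 17 such genes, 8 of them with the same component number as a member, and the mucin-5AC-like gene had none. Of the 17, 1 passed the filter, TRINITY_DN19503_c3_g1, which averaged 53.8 CPM in late instars and 48.6 CPM in early instars (log2 fold change 0.15 ± 0.27 (SE); edgeR quasi-likelihood test, adjusted p = 0.730). The other 16 held 134 late and 24 early counts in all. Close copies of these genes merged into 1 Trinity gene could not be told from isoforms. The study listed 6 other genes as higher in late instars, each for an isoform that differed in these same libraries. Their number of calls is therefore not independent evidence. The same gene-level test called 2 of the 6, where it called 4.87% of all tested genes higher. These were the cytochrome c oxidase subunit 6b-2-like gene (log2 fold change 2.06, adjusted p = 0.000166, edgeR) and the fatty acid synthase-like gene (11.75, adjusted p = 1.87e-05, edgeR). The glucose dehydrogenase-like gene (9.51, adjusted p = 0.0027, edgeR) and the urbain precursor gene (8.84, adjusted p = 0.00801, edgeR) missed the limit on p alone. The S-phase kinase-associated protein gene (0.36, adjusted p = 0.193, edgeR) and the cytochrome P450 6B46 gene (-0.42, adjusted p = 0.179, edgeR) missed both limits.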

How the data were processed

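The 6 libraries were paired-end RNA-seq of pooled whole larvae. The members and lists were chosen with earlier results of these data known. Per the paper and the labels, the authors trimmed the reads with Trimmomatic 0.36, assembled those of all libraries together with Trinity and estimated abundance with RSEM (its version and aligner: not given in the sources used here). For each transcript and library, the authors deposited RSEM expected counts without normalization, TPM (scaled within a library by effective length), the percent of its gene's TPM that an isoform holds, and the transcript length. The deposited FPKM were not used.

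From the deposited expected counts, sums over the isoforms of each Trinity gene, and each isoform, were rounded to whole numbers and tested with edgeR 4.0.16 in R 4.3.3 (TMM, glmQLFit, glmQLFTest) after a filter of more than 1 CPM in at least 2 libraries. The limits of a call were 0.001 for the adjusted p and 2 for the size of the log2 fold change. Isoform usage was tested with diffSpliceDGE at an adjusted p of 0.05. The text names all 4 genes, the isoforms that held at least 10% of the TPM of their gene in a stage, and those listed by the study. Other isoforms, and the choice of pairs, came after the values were seen.

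Alternatives were edgeR's exact test, DESeq2 1.42.0, no filter, RLE factors or no composition factor, CPM above 1 in 3 libraries, an adjusted p of 0.05 (usage: 0.001), limma 3.58.1 on log2(TPM + 0.5) and its diffSplice, a prior count of 2 in place of 0.125, a block on the replicate number, and leaving out each library. The scripts were tested on simulated counts. The gene tests called nearly all changed genes and a few unchanged ones, the isoform test at 0.001 missed most changed isoforms and called no unchanged one, and the usage test missed most changed isoforms and called many unchanged ones. At the depths given, 1 CPM rests on more than 10 fragments in every library, and intervals and floors cover counting error only. Group and replicate came from the labels. Functional annotation and sequences were not analysed here.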

Additional observations from a re-analysis of the deposited data

How the results depend on the processing

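The fold changes of the 4 genes kept their direction under all 16 alternatives each. The alternative at an adjusted p of 0.05 reused the main fold changes. Every late library was above every early one in these genes, so leaving out a library could hardly turn the direction. In those alternatives the kept direction is therefore no test. With 1 library left out, the log2 fold change lay between 3.96 and 4.74 for the aminopeptidase N-like gene, between 5.76 and 6.89 for serine protease H51, between 2.74 and 3.75 for the mucin-5AC-like gene and between 0.95 and 1.38 for gamma-glutamyltranspeptidase, which kept its side of the threshold throughout. By limma on log2(TPM + 0.5), whose pseudocount shrinks the fold of low genes, the calls of the aminopeptidase N-like gene (3.79, adjusted p = 0.00114) and of serine protease H51 (3.04, adjusted p = 0.00569) were lost. The mucin-5AC-like gene passed with no filter (3.22, adjusted p = 5.42e-30, edgeR), by the exact test of edgeR (3.24) and at an adjusted p of 0.05 (3.23). With no filter, edgeR's adjusted p also fell to 4.52e-51 for the aminopeptidase N-like gene and 4.47e-71 for serine protease H51. Their log2 fold changes hardly moved (4.35 and 6.37). The pass of the mucin-5AC-like gene in that setting thus came with smaller p-values in these genes too, not with a larger fold. Replicate numbers were shared by the stages. Same-numbered libraries deviated together at r = 0.15, 0.0359 and 0.218, and differently numbered ones at -0.226 to 0.0178, so each library correlated best with its own number. The main test did not take the numbers as pairs, and whether they mark a shared factor was not tested. With the replicate block the aminopeptidase N-like gene had 4.13 (adjusted p = 0.00141, edgeR) and lost its call, and usage calls lower in late instars numbered 165, against 287 without it. Genes called higher in late instars numbered 1077, against 1698 by the exact test, 1621 by DESeq2, 2244 with no filter, 1713 at an adjusted p of 0.05 and 581 to 1486 with a library left out (over 1.5 times fewer without early replicate 1 or 3). Genes called lower numbered 876, against 1399, 1315, 1584, 1414 and 445 to 1001 in the same order (over 1.5 times fewer without late replicate 3 or any early library), and 270 by limma. Isoforms called higher numbered 0, against 2160 by the exact test, 2570 by DESeq2, 1403 with no filter and 2220 at 0.05, and isoforms called lower 0, against 1116, 1750, 489 and 1598, and 0 with any library left out. Usage calls higher in late instars numbered 397, against 113 at an adjusted p of 0.001 and 264 to 392 with a library left out, and those lower 48 and 154 to 469 (library omissions that moved a usage count over 1.5 times were those of late replicates 1 and 2 and early replicates 1 and 2). Sign changes touched only values near 0: isoform i9 of gamma-glutamyltranspeptidase without late replicate 1 (0.15, range -0.79 to 0.15), the usage of serine protease H51 i2 with no filter (0.0256) or with a library left out (-0.0952 to 0.0555), and that of aminopeptidase N-like i5 (-0.193 to 0.0899). The causes were not tested. Serine protease H51, with 5 to 29 early fragments, had the least depth.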
